A study of Mus musculus with 8 samples.

Results

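Transcripts of 10 genes of the Notch pathway were followed in the uterus of mice that lack Nr2f2 in Pgr-expressing cells. The genes were taken by symbol from the 24963 listed, as the 4 receptors Notch1, Notch2, Notch3 and Notch4, the 4 ligands Jag1, Jag2, Dll1 and Dll4, and the 2 targets Hes1 and Heyl. This rule on names uses no measured value, but the genes were chosen with earlier results of these data known. Whole uteri of C57B6/J females were collected at gestation day 3.5 (GD3.5), and each of the 8 mice gave 1 RNA-seq library. The 4 Nr2f2 f/f controls carried the floxed allele with no Cre, and the 4 Nr2f2 d/d mice carried the same floxed alleles with Cre knocked into 1 Pgr allele, so that only cells that express the progesterone receptor can lose Nr2f2 and the mutants have 1 intact Pgr allele. The labels give an age of 8 weeks, the methods give 2 to 3 months, and the males were vasectomized, so the uteri held no embryo. Abundance is given as FPKM, fragments scaled to the length of the gene and to the total of the library, so that levels can be compared between genes.

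Notch receptors are membrane proteins that are cut when a ligand of the Jagged or Delta-like family on a neighbouring cell pulls on them, and the freed intracellular part enters the nucleus and switches on genes with the DNA-binding protein RBPJ. The repressors of the Hes and Hey families are the best known of these genes. In vessels, Notch4 and Dll4 are carried mainly by endothelial cells and Notch3 by pericytes and smooth muscle cells, whereas Notch1, Notch2 and the Jagged ligands are found more widely. NR2F2 is a nuclear receptor that keeps Notch signalling low in the endothelium of veins, and in the uterus it is known for its role in the stroma.

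The deleted gene was measured first. Nr2f2 stood at 25.3, 21.8, 25.7 and 23.5 FPKM in Nr2f2 f/f replicates 1 to 4 and at 9.66, 9.42, 6.90 and 9.74 FPKM in Nr2f2 d/d replicates 1 to 4, so the genotypes did not overlap, and 37.1% of the control mean was left. Its log2 fold change was -1.39 (SE 0.118, limma adjusted p = 0.00549, and exact permutation p = 0.0286, the smallest that 4 against 4 allows). Library depth, estimated from short genes of a single exon, was 61450000 to 92600000 fragments, and at such depth counting error was at most 3.45% of a value for 9 of the 10 genes and 6.39% for Dll1, the gene with the fewest fragments, 245 to 580 a library. Nr2f2 f/f replicate 2 stood apart from the other controls in 5.95% of the 14323 genes tested, against 0.356% to 2.92% for each of the other 7 libraries, and the main fold changes that it moves are given with and without it. All 10 Notch genes averaged 0.5 FPKM or more over the 8 libraries and so passed the filter on low values.

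For the receptors Notch3 and Notch4, whose transcripts are described further on, the sequence just upstream of the gene is shown because these are the receptors with an unadjusted p under 0.05, and 1 of them holds the 6-letter site that nuclear receptors such as NR2F2 bind. Both are read 5′ to 3′ on the strand of the gene from the RefSeq promoter windows of GRCm38.p6. The Notch4 stretch was cut where the annotated gene begins. That of Notch3 stops at its RefSeq start, upstream of the annotated gene, which begins at 32166852. The Notch3 stretch is chr17:32166891-32167140 on the minus strand and the Notch4 stretch is chr17:34564045-34564267 on the plus strand, and capitals mark that site.
Notch3: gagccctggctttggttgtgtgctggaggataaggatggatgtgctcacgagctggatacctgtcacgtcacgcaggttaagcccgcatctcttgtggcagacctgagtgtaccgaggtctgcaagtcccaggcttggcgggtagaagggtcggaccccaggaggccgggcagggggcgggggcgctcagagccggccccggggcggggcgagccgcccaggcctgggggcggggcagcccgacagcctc
Notch4: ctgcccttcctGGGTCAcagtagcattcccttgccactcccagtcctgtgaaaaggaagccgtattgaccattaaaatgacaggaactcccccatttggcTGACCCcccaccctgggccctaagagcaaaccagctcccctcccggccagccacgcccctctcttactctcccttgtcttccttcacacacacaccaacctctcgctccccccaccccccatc
In Notch4 the capitals read GGGTCA at -239 from the RefSeq start and, as its reverse complement, at -150. The search took AGGTCA or GGGTCA on either strand over windows of 250 bases before and 50 bases after each start, and found the site in 2 of the 9 windows of the 8 genes that had one, that of Notch4 and 1 of the 2 of Dll1. This Dll1 window, with AGGTCA at -109, belongs to a RefSeq start inside the annotated gene, and the window at the start of the Dll1 gene held no site. Among all 32851 windows of that length 27.5% held it. The core of the RBPJ site, TGGGAA on either strand, was in 0 of the 9 windows and in 25.6% of all windows. These are matches of letters only, and Hes1 and Heyl had no window.

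Within the control uterus Hes1, a repressor of the Hes family and a direct Notch target, had the highest level of the 10 genes at 24.5 ± 2.74 FPKM (SD, n = 4), and Dll1, a Delta-like ligand, had the lowest at 1.65 ± 0.122 FPKM. Between them came Jag1, Notch1, Jag2, Notch2, Notch3, Dll4, Heyl and Notch4 in that order of mean FPKM. Hes1 was above Jag1 in every control library and Notch4 was above Dll1, whereas the ranges of all other neighbours in the order overlapped. In Nr2f2 d/d the order was the same but for Notch2, which stood above Jag2, with 7.11 ± 0.54 against 5.62 ± 0.747 FPKM and ranges that did not overlap. Ranges in Nr2f2 d/d were also apart between Hes1 and Jag1, Notch1 and Notch2, Dll4 and Heyl, and Notch4 and Dll1.

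**Figure D1:**
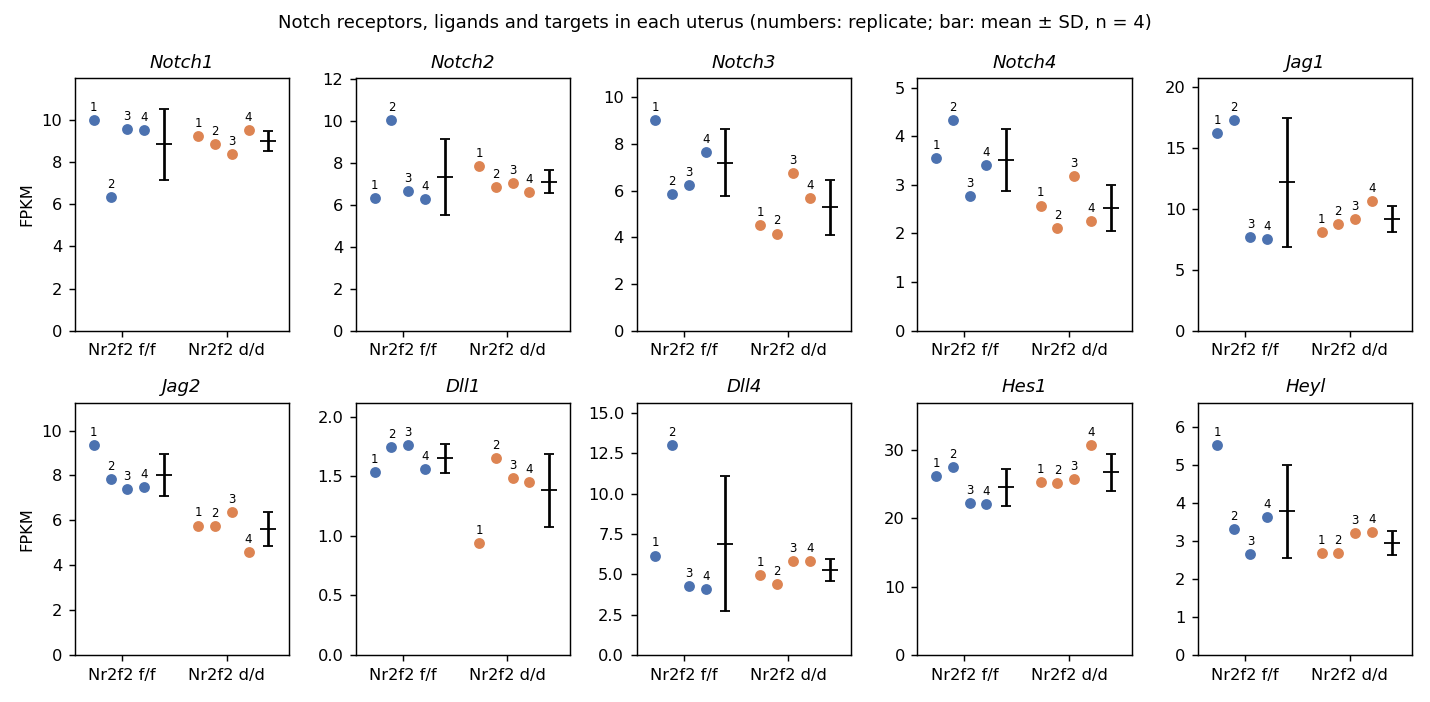
FPKM (vertical axes, each from 0) of the 10 Notch genes in the 4 Nr2f2 f/f uteri (blue) and the 4 Nr2f2 d/d uteri (orange). Each point is a library with its replicate number and each bar is the mean ± SD. For Jag2 the 4 Nr2f2 d/d points, 4.59 to 6.38, lie under all control points, 7.39 to 9.36, and for the other 9 genes the genotypes overlap.

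None of the 10 genes passed an adjusted p of 0.05 between the genotypes in limma fitted across all genes, where 2.62% of the genes tested did (375, and 42 to 348 when 1 library was left out). At an unadjusted p under 0.05 there were 3 Notch genes, Jag2, Notch4 and Notch3, each with a lower mean in Nr2f2 d/d, beside 21.2% of all genes tested. With a fold change of at least 1.4 added, the threshold in the study's methods, 0 of the 10 were left, against 8.8% of all genes (4.7% higher and 4.1% lower). The median log2 fold change of the 10 genes was -0.25, with 8 below 0 and 2 above, and that of all genes tested was -0.02. Without control replicate 2 this median was -0.14, and Jag2 and Notch3 then passed the threshold of the study's methods, while without mutant replicate 3 Jag2, Notch3 and Notch4 did. Fold changes here are differences of log2(FPKM + 0.5) and understate the change of genes with low values.

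**Figure D2:**
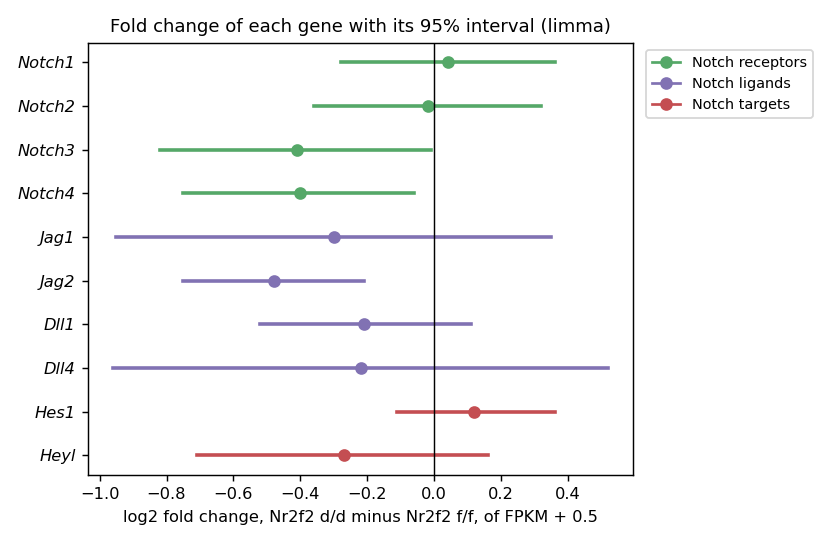
Log2 fold change of each Notch gene, Nr2f2 d/d minus Nr2f2 f/f, of FPKM + 0.5 (horizontal axis), with bars for the 95% interval of limma, n = 4 for each genotype. The intervals of Notch3, Notch4 and Jag2 lie below 0, from -0.82 to -0.01, -0.75 to -0.06 and -0.75 to -0.21, before adjustment over all genes, and the other 7 cross 0.

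Among the receptors, Notch1 was at 9.99, 6.34, 9.57 and 9.53 FPKM in Nr2f2 f/f replicates 1 to 4 and at 9.26, 8.86, 8.40 and 9.52 FPKM in Nr2f2 d/d replicates 1 to 4. Control replicate 2 was the lowest of all 8 libraries, and the other 3 controls were above every mutant. The log2 fold change was 0.04 (95% interval -0.28 to 0.36, limma adjusted p = 0.887), and it was -0.10 without control replicate 2. Notch2, the receptor closest to Notch1 in structure, was at 6.35, 10.04, 6.65 and 6.27 FPKM in the controls and at 7.88, 6.88, 7.05 and 6.63 FPKM in the mutants. Here control replicate 2 was the highest library and the other 3 controls overlapped with the low end of the mutants. For Notch2 the log2 fold change was -0.02 (95% interval -0.36 to 0.32, limma adjusted p = 0.96) and changed sign to 0.13 without control replicate 2.

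Notch3, the receptor of pericytes and vascular smooth muscle, was at 9.004, 5.86, 6.25 and 7.67 FPKM in the controls and at 4.54, 4.16, 6.76 and 5.70 FPKM in Nr2f2 d/d. Mutant replicates 1, 2 and 4 were under every control, and mutant replicate 3 lay within the control range. The mean went from 7.2 ± 1.44 to 5.29 ± 1.18 FPKM (SD, n = 4), with a log2 fold change of -0.41 (SE 0.177, limma p = 0.0467, adjusted p = 0.229), and an exact permutation test of the FPKM gave p = 0.114. The library kit does not keep strand, and 6.03% of the exon bases of Notch3 are shared with Gm17276 on the other strand, so fragments there could belong to either gene. Exon bases shared with other genes were also 9.76% for Notch1, 5.02% for Notch2, 5.56% for Dll4 and 7.46% for Nr2f2.

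Notch4, the receptor known from endothelium, was at 3.55, 4.33, 2.77 and 3.42 FPKM in the controls and at 2.57, 2.11, 3.18 and 2.26 FPKM in Nr2f2 d/d. It had the layout of Notch3, with mutant replicate 3 inside the control range and the other 3 mutants under it. The mean went from 3.51 ± 0.639 to 2.53 ± 0.474 FPKM, with a log2 fold change of -0.40 (SE 0.151, limma p = 0.0272, adjusted p = 0.185, exact permutation p = 0.0571). No annotated exon of another gene overlaps it. Over the 4 receptors together the summed level was 25.2 to 28.9 FPKM in the controls and 22.0 to 25.4 FPKM in the mutants, which overlap. Notch1 made up 32.9% ± 6.22 of the receptor sum in the controls and 37.8% ± 3.22 in the mutants, and Notch4 made up 13.1% ± 2.27 and 10.5% ± 1.44 (SD, n = 4).

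Of the ligands, Jag2 had the only values that did not overlap between genotypes. It was at 9.36, 7.83, 7.39 and 7.48 FPKM in the controls and at 5.77, 5.73, 6.38 and 4.59 FPKM in the mutants, so each mutant was under the lowest control. Lower and non-overlapping values were found for 9.91% of all genes tested. The mean of Jag2 went from 8.02 ± 0.918 to 5.62 ± 0.747 FPKM, 70.1% of the control, with a log2 fold change of -0.48 (SE 0.116, 95% interval -0.75 to -0.21, limma p = 0.00301, exact permutation p = 0.0286). The limma adjusted p was 0.07 and ran from 0.0696 to 0.166 over the alternative settings.

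Jag1, the other Jagged ligand, was at 16.3, 17.3, 7.66 and 7.56 FPKM in the controls and at 8.08, 8.78, 9.14 and 10.7 FPKM in the mutants. The controls fell into a high pair, replicates 1 and 2, and a low pair, and all mutants lay between the pairs. The SD was 43.5% of the mean in the controls and 12.0% in the mutants, and the log2 fold change was -0.30 (95% interval -0.95 to 0.35, limma adjusted p = 0.582), or -0.13 without control replicate 1, -0.10 without replicate 2 and -0.48 without either of the low pair. Dll4, a Delta-like ligand of endothelial cells, was at 6.16, 13.0, 4.26 and 4.11 FPKM in the controls and at 4.98, 4.39, 5.83 and 5.82 FPKM in the mutants. Control replicate 2 alone was far above the other 7 libraries. The log2 fold change of Dll4 was -0.22 (95% interval -0.96 to 0.52, limma adjusted p = 0.733), and without that library it was 0.12.

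Dll1 was at 1.53, 1.75, 1.76 and 1.56 FPKM in the controls and at 0.94, 1.66, 1.49 and 1.45 FPKM in the mutants. Mutant replicates 1, 3 and 4 were under every control and replicate 2 was within their range. Its log2 fold change was -0.21 (95% interval -0.52 to 0.11, limma adjusted p = 0.416), or -0.08 without mutant replicate 1, and 20.5% of its exon bases are shared with A930024N18Rik on the other strand. The 4 ligands added up to 33.3, 39.9, 21.1 and 20.7 FPKM in the controls and to 19.8 to 22.8 FPKM in the mutants. Control replicates 1 and 2 were thus the only libraries above the mutant range, and the low pair of controls lay inside it.

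**Figure D3:**
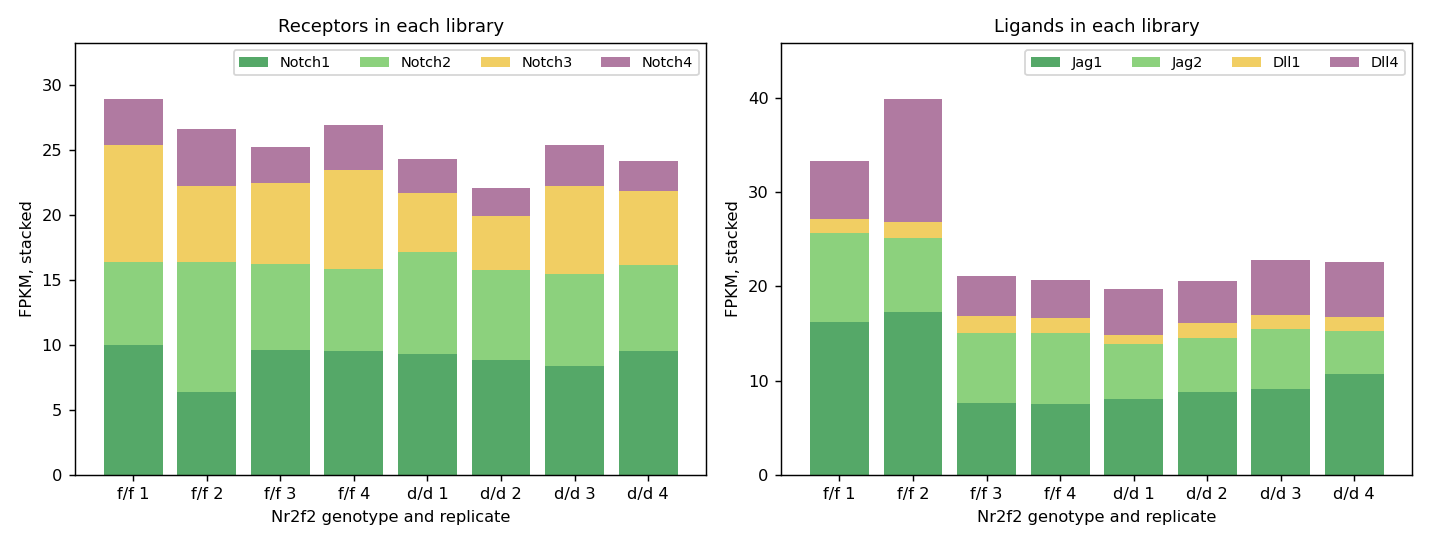
Stacked FPKM (vertical axes from 0) of the 4 receptors (left) and of the 4 ligands (right) in each of the 8 libraries, by genotype and replicate. The receptor sums run from 22.0 to 28.9 over all libraries, and the ligand sums of control replicates 1 and 2, 33.3 and 39.9, stand above the other 6, with Jag1 and in replicate 2 also Dll4 higher.

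Neither of the targets passed the test, and their mean differences had opposite signs. Hes1 was at 26.2, 27.5, 22.2 and 22.1 FPKM in the controls and at 25.3, 25.1, 25.7 and 30.7 FPKM in the mutants. The mutants lay within the control range but for replicate 4, which was the highest library. The log2 fold change was 0.12 (95% interval -0.11 to 0.36, limma adjusted p = 0.516, exact permutation p = 0.286), from 0.06 without mutant replicate 4 to 0.18 without control replicate 2. Heyl, a Hey family repressor known from vascular smooth muscle, was at 5.52, 3.30, 2.65 and 3.61 FPKM in the controls and at 2.67, 2.68, 3.20 and 3.22 FPKM in the mutants. All mutants were within the control range, which control replicate 1 widened. For Heyl the log2 fold change was -0.27 (95% interval -0.71 to 0.16, limma adjusted p = 0.431), or -0.10 without control replicate 1 and -0.41 without control replicate 3.

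The remaining genes of the pathway were read from lists by step, 47 genes in all, of which 39 passed the filter on low values. Of these 39, Hes6 rose and Mfng fell at an adjusted p under 0.05, where 1.09% of all genes tested rose and 1.53% fell. The median log2 fold change was -0.01, with 14 genes above 0 and 25 below. Both calls were near the threshold, and each was lost in 7 of the 8 fits that left out 1 library. Non-overlapping values were found for 7 of the 39, lower in 6 and higher in 1, beside 15.4% of all genes tested, 9.91% lower and 5.49% higher.

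Receptor glycosylation and Furin cleavage, which prepare the receptors for the cell surface, had 6 genes tested. Mfng, a Fringe enzyme that adds sugars to Notch and changes its response to Jagged and Delta-like ligands, was at 11.6, 10.96, 9.83 and 9.89 FPKM in the controls and at 6.59, 6.66, 7.42 and 8.61 FPKM in the mutants. All 4 mutants were under all 4 controls. The log2 fold change was -0.51 (SE 0.102, limma adjusted p = 0.0454, 0.0303 to 0.171 over the alternatives, exact permutation p = 0.0286). Poglut1, which adds glucose to Notch, had the next smallest p with a log2 fold change of -0.17 (limma adjusted p = 0.239), and the related Fringe enzymes Lfng and Rfng had -0.20 and 0.01, where Rfng went to -0.38 without control replicate 2 and 0.25 without mutant replicate 3, and Lfng to -0.11 without mutant replicate 3 and -0.35 without mutant replicate 4.

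Among the 4 genes of ligand endocytosis, which the sending cell needs to pull on the receptor, 0 passed an adjusted p of 0.05 in limma and 1 had an unadjusted p under 0.05, which in this and the next lists is read beside 21.2% of all genes tested. This was Mib1, the ubiquitin ligase of the ligands, which was at 5.11, 4.26, 3.47 and 3.69 FPKM in the controls and at 2.84, 2.42, 3.06 and 2.15 FPKM in the mutants. No mutant reached the lowest control, and the log2 fold change was -0.57 (95% interval -0.89 to -0.24, limma adjusted p = 0.0741). Its relative Mib2 had -0.20 (limma adjusted p = 0.544), or -0.04 without control replicate 2 and -0.09 without mutant replicate 3. In receptor cleavage, the sheddases and the gamma-secretase subunits, 0 of 9 passed the adjusted p and 2 had an unadjusted p under 0.05, Aph1b with a log2 fold change of -0.29 and non-overlapping lower values (limma adjusted p = 0.133) and Psenen with 0.19 (limma adjusted p = 0.232).

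The nuclear complex had 0 of 8 past the adjusted p and 3 with an unadjusted p under 0.05 in limma, all lower, Spen, Rbpj and Ep300. Rbpj, which binds the DNA, was at 10.8, 10.2, 12.2 and 13.0 FPKM in the controls and at 6.09, 10.4, 9.08 and 7.93 FPKM in the mutants. Mutant replicate 2 was above control replicate 2 and the other 3 mutants were under every control. Its log2 fold change was -0.46 (95% interval -0.82 to -0.09, limma adjusted p = 0.158, exact permutation p = 0.0571). Spen, a co-repressor that binds RBPJ, had a log2 fold change of -0.34 (limma adjusted p = 0.133), with 3 mutants under every control and replicate 1 within their range. The values of Ep300, a co-activator, did not overlap, with a log2 fold change of -0.29 (limma adjusted p = 0.163). Those of Maml3 did not overlap either, with -0.55 (limma adjusted p = 0.299), or -0.24 without control replicate 2. Of the 8 genes of receptor inhibition and turnover 0 passed the adjusted p and 2 had an unadjusted p under 0.05 in limma. These were Dtx3, a Deltex family member, with -0.32 (limma adjusted p = 0.15) and Numbl, a relative of the Notch inhibitor Numb, with 0.22 (limma adjusted p = 0.218).

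Of the 8 other target genes 4 were tested, and Hes2, Hes3, Hes5 and Hes7 fell under the filter, as did all 4 of the other ligands, Dll3, Dlk1, Dlk2 and Dner. Hes6 was at 11.7, 10.8, 16.1 and 14.7 FPKM in the controls and at 21.8, 21.2, 22.8 and 18.9 FPKM in the mutants, and no control reached the lowest mutant. Its log2 fold change was 0.66 (SE 0.132, limma adjusted p = 0.0447, 0.0331 to 0.143 over the alternatives, exact permutation p = 0.0286). Hes6 is known as a relative of Hes1 that opposes its action and is not a standard Notch-induced gene, so its place in a list of targets rests on its family. Hey2 had a log2 fold change of -0.43 (95% interval -0.84 to -0.03, limma adjusted p = 0.209), Nrarp, which Notch induces and which restrains it, had -0.24, and Hey1 had 0.21, which ran from 0.11 without control replicate 3 to 0.32 without control replicate 2.

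**Figure D4:**
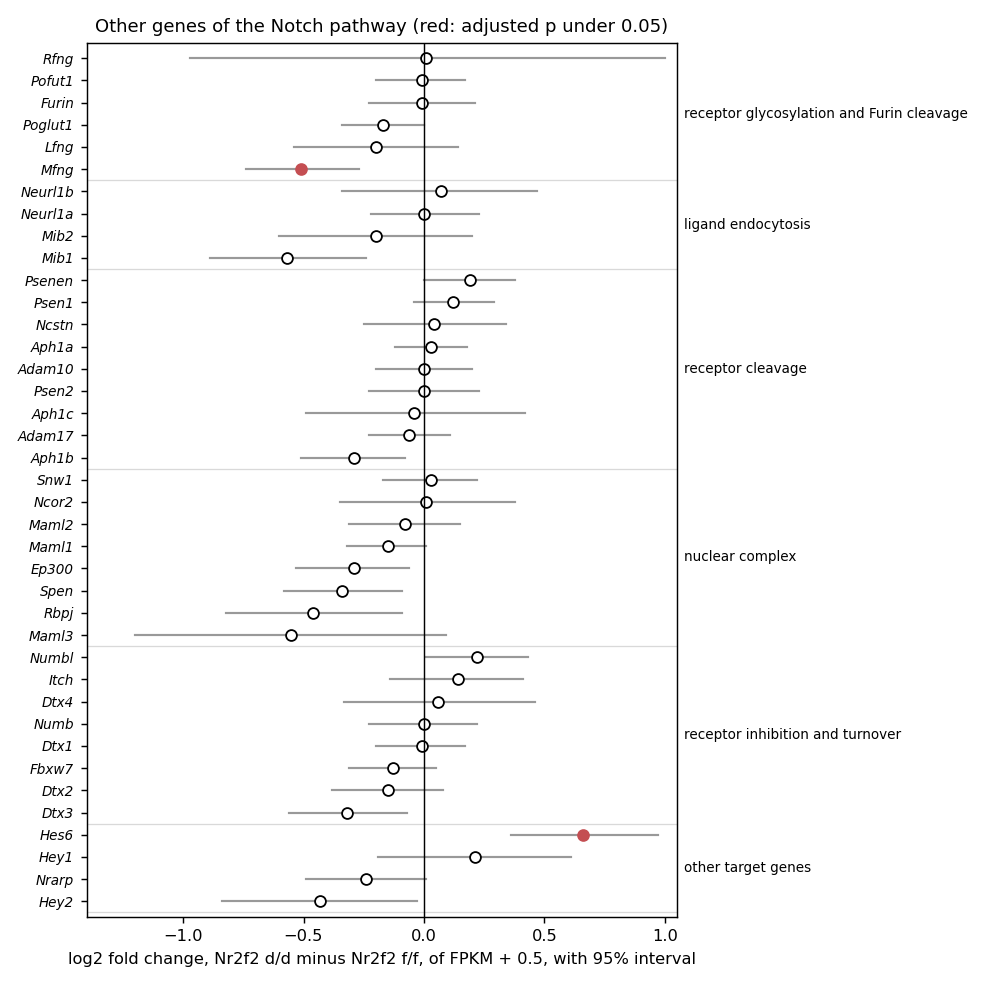
Log2 fold change, Nr2f2 d/d minus Nr2f2 f/f, of FPKM + 0.5 (horizontal axis), with the 95% interval of limma for the 39 other genes of the Notch pathway that were tested, grouped by step and ordered within a step. Filled red points are the 2 genes with an adjusted p under 0.05, Mfng at -0.51 and Hes6 at 0.66.

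Markers of the cells that carry these genes were read from the same libraries. Of 12 endothelial markers 11 had a log2 fold change below 0, 7 fell at an adjusted p under 0.05, beside 1.53% of all genes tested, and 10 were lower with no overlap, beside 9.91%, with a median log2 fold change of -0.73. With 1 library left out 0 to 8 of the 12 passed, 0 without mutant replicate 1 or 2, 1 without control replicate 1 or 4 and 5 to 8 otherwise, while the median stayed between -0.78 and -0.60. Egfl7 and Esam, the most abundant of them, had log2 fold changes of -0.73 (limma adjusted p = 0.0251) and -0.74 (limma adjusted p = 0.0151). The summed level of the endothelial markers was 408 to 552 FPKM in the controls and 250 to 324 FPKM in the mutants, and in whole tissue fewer cells of a type and less RNA per cell cannot be told apart. Pericyte markers, a list that itself holds Notch3, summed to 228 to 283 FPKM in the controls and 170 to 195 FPKM in the mutants, with 7 of 8 below 0 and 1 call, Rgs5 with a log2 fold change of -0.67 (limma adjusted p = 0.0154, lost without control replicate 1 or mutant replicate 1 or 2), while the second most abundant, Mcam, had -0.32 (limma adjusted p = 0.249). No marker of these lists was at 0 in all libraries, and the part of these markers in the lower values of Notch3, Notch4 and Jag2 was not tested.

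Markers of arterial endothelium, a list that shares Hey1 with the pathway, had a median log2 fold change of 0.00, or -0.18 without control replicate 2. In limma 0 of 9 passed the adjusted p and 6 had an unadjusted p under 0.05, beside 21.2% of all genes tested. Of these 6, Gja4 (-0.62), Bmx (-0.53), Acvrl1 (-0.39) and Nrp1 (-0.30) were lower and Efnb2 and Unc5b (0.75) were higher. Their sum was 97.1 to 169 FPKM in the controls and 121 to 179 FPKM in the mutants, or 161 to 169 FPKM without control replicate 2 and 169 to 179 FPKM without mutant replicate 3. The most abundant were Sox17 with 0.13 and Efnb2, an ephrin of arteries, with 0.77 (limma adjusted p = 0.88 and 0.232), and without control replicate 2 these were -0.18 and 0.40. Sox17 also ran up to 0.49, without mutant replicate 3, and 1 of the 9 passed without mutant replicate 3 or 4. Sox17 averaged 69.2 FPKM in the controls and 76.7 FPKM in the mutants. The paper counts it among major uterine regulators, so the sum and median of this list may not report on arteries alone. Venous and lymphatic markers summed to 93.9 to 132 FPKM in the controls and 55.2 to 66.5 FPKM in the mutants. This sum holds the deleted gene Nr2f2, with means of 24.1 and 8.93 FPKM. Of the 7 tested, 5 were below 0 and 2 above, the lymphatic Lyve1 (0.25) and Flt4 (0.18). Lyve1 was at 0.50 without control replicate 2 and 0.04 without mutant replicate 2. Flt4 was at 0.30 without mutant replicate 1 and 0.10 without mutant replicate 3. Of these 7, 3 fell, beside 1.53% of all genes tested, Nr2f2, Nrp2 and Aplnr, the last by 1.17 on the log2 scale (limma adjusted p = 0.0328), with 2 or 3 calls when 1 library was left out. The fall of Nr2f2 was set by the deletion, so it is not a result about veins. Ephb4, the most abundant of these markers after Aplnr, had -0.24 (limma adjusted p = 0.243). Smooth muscle markers summed to 1300 to 1830 FPKM in the controls and 1040 to 2560 FPKM in the mutants, with 0 of 9 past the adjusted p and 0 with an unadjusted p under 0.05 in limma, and with Tagln at -0.08 and Acta2 at 0.11, which ran from -0.33 to 0.12 and from -0.08 to 0.33 with 1 library left out, Acta2 being at -0.03 without control replicate 2.

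**Figure D5:**
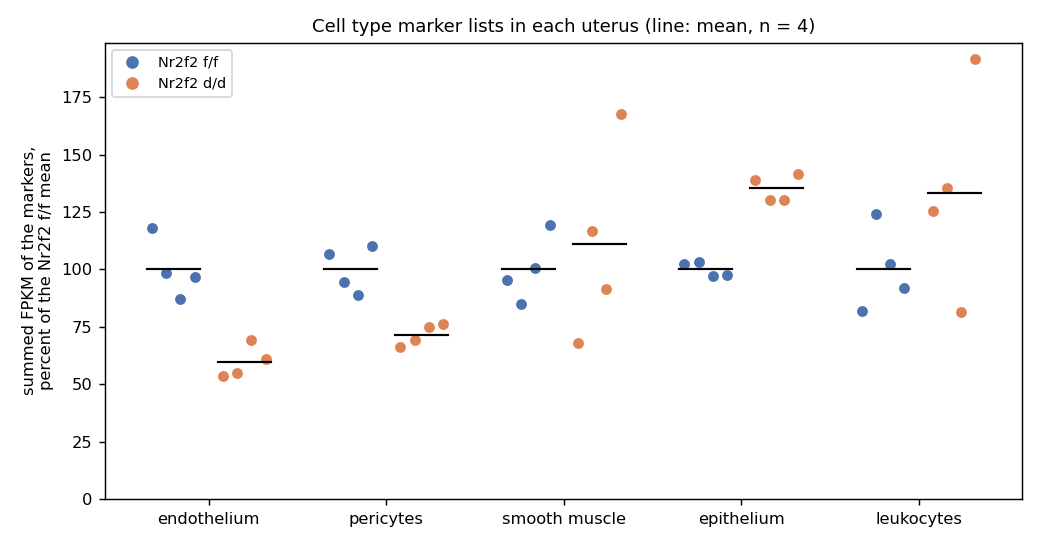
Summed FPKM of 5 marker lists in each library, as a percent of the Nr2f2 f/f mean of that list (vertical axis from 0), with Nr2f2 f/f in blue, Nr2f2 d/d in orange and lines for the means of 4. Endothelial and pericyte sums of the mutants lie under all controls, epithelial sums lie above them, and smooth muscle and leukocyte sums overlap.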

How the data were processed

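RNA-seq of 8 whole uteri at GD3.5 was compared between 4 Nr2f2 f/f and 4 Nr2f2 d/d mice, with groups and replicate numbers from the sample titles. The authors deposited FPKM, derived from 76-bp paired-end reads aligned to mm10, and the submitters' processing notes list cutadapt 1.12, STAR 2.5.2b, featureCounts 1.5.0-p1 and Cufflinks 2.0.2. The annotation, the strand setting and the FPKM formula are not given in the sources used here. FPKM are relative to the library total, so abundant transcripts shift all others. The authors tested counts with DESeq2 on counts not used here.

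For the 14323 genes that averaged 0.5 FPKM or more, log2(FPKM + 0.5) was compared between genotypes in two-sided tests with limma 3.58.1 (R 4.3.3), using a moderated variance that follows the mean, with Benjamini-Hochberg adjustment over all of them. Single genes were also compared by two-sided exact permutation of the FPKM (Python 3.11.15, scipy 1.17.1). The p-values measure the spread between mice. The model was tested on simulated data. Intervals of fold changes are unadjusted 95% intervals. Depth was estimated as the total at which FPKM of short single-exon genes became whole fragments, within 0.05 of a fragment, for 82.8% to 86.3% of values against medians of 4.7% to 5.51% at other totals, and counting errors cover counting only. Exons shared between genes were taken from GENCODE vM21, an annotation of mm10.

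The 10 genes, the pathway lists and the marker lists were chosen with earlier results of these data known. Named beside the 10 genes and Nr2f2 are, from each pathway list, the calls and the 2 tested members with the smallest p, from each marker list the 2 members with the highest mean FPKM over the 8 libraries, and the 2 genes whose within-genotype deviations correlated best with each of the 10. Lfng, Rfng, Ep300, Maml3, Nrarp, Hey1, Nrp2, Gja4, Bmx, Acvrl1, Nrp1, Unc5b, Lyve1, Flt4, Col1a1, Col1a2, Hand2, Vim, Elf3, Cxcl15, Foxa2 and Lif are named outside this rule, after their values were seen. Alternatives were 0.1 or 1 added before the log2, no filter or one at 1 FPKM, quantile normalization, median-ratio scaling, a robust variance or one without the trend, the replicate number as a block, and each library left out in turn, which was extended to the marker lists after the data were seen.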

Additional observations from a re-analysis of the deposited data

Results flagged for a closer look

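In 8 of 46 groups of 4 libraries, 1 library lay far from the other 3 by Dixon's test, which chance alone gives in about 5% of groups. The groups were 23 genes in 2 genotypes, namely the 10 Notch genes, Nr2f2 and the pathway genes named by rule. Over all genes tested, a given library lay apart in 0.356% to 5.95% of genes, the highest for Nr2f2 f/f replicate 2. Nr2f2 f/f replicate 2 was low for Notch1 at 6.34 FPKM and high for Notch2 at 10.04 FPKM and for Dtx3 at 111 FPKM. Nr2f2 d/d replicate 3 was low for Mib2 at 10.8 FPKM, for Dtx3 at 64.7 FPKM and for Nr2f2 at 6.90 FPKM. Hes1 was high in Nr2f2 d/d replicate 4 at 30.7 FPKM, and Hey2 was high in Nr2f2 f/f replicate 4 at 2.79 FPKM.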

How the results depend on the processing

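The count of the 10 Notch genes with an adjusted p under 0.05 was 0 under all 17 alternatives. Their median log2 fold change of -0.25 was lowest at -0.40 when Nr2f2 f/f replicate 3 was left out and highest at -0.14 when replicate 2 was. With a fold change of at least 1.4 and an unadjusted p under 0.05, the count was 0, 1 with 0.1 added before the log2 (Jag2), and 0 to 3 when 1 library was left out, with Jag2, Notch3 and Notch4 past it without Nr2f2 d/d replicate 3, Jag2 and Notch3 without Nr2f2 f/f replicate 2, Jag2 and Notch4 without Nr2f2 f/f replicate 3, and Jag2 alone in 3 other fits. Of 170 fold changes of single Notch genes 6 changed sign. These were Notch1, Notch2 and Dll4 without Nr2f2 f/f replicate 2, with leave-one-out ranges of -0.10 to 0.10, -0.078 to 0.13 and -0.40 to 0.12, and Notch2 with median-ratio scaling (0.0099), with quantile normalization (0.015) and without Nr2f2 d/d replicate 4 (0.013). Of the other pathway genes 2 passed the adjusted p, 0 with no filter, 1 with median-ratio scaling, 1 with quantile normalization, and 0 to 1 when 1 library was left out, Mfng without Nr2f2 d/d replicate 4 and Hes6 without Nr2f2 f/f replicate 3. The count over all genes, 375, was 42 to 348 with 1 library left out (42 when mutant replicate 2 was left out, 57 for mutant replicate 1, 62 for control replicate 1, 95 for control replicate 4 and 208 for control replicate 3). With the replicate block it was 1, that of the other pathway genes was 0, and Nr2f2 had an adjusted p of 0.0714. Whether the numbers pair the mice cannot be told from these libraries. Deviations of same-numbered libraries correlated at -0.204, -0.172, 0.0452 and -0.0403, where all pairs ran from -0.321 to 0.279. Deviations from the mean of 4 libraries balance around 0, so low values do not exclude a pairing. The column labels number the mice differently from the titles, and the 3 numbers that the genotypes share there gave -0.204, 0.149 and -0.0403. The cause of the shifts in these counts was not tested. With 4 mice a genotype, the intervals of Jag1 and Dll4 span more than those of the other Notch genes.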

Other observations

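Epithelial markers summed to 848 to 902 FPKM in Nr2f2 f/f and 1140 to 1240 FPKM in Nr2f2 d/d, with 9 of 10 above 0. Of the 10, 2 rose, beside 1.09% of all genes tested. These were Krt8, a keratin of simple epithelia, with a log2 fold change of 0.74 (limma adjusted p = 0.00829) and Elf3, an epithelial transcription factor, with 1.43 (limma adjusted p = 0.0415). With 1 library left out 1 or 2 of the 10 passed. Cldn3, the most abundant of them, had 0.01, or -0.04 without control replicate 2 and, without mutant replicates 3 and 4 in turn, 0.36 and -0.20. Stromal markers summed to 1820 to 2130 FPKM and 2580 to 5010 FPKM, the latter 2580 to 3200 FPKM without mutant replicate 3, with 5 of 10 above 0 and 5 below. Col1a1, a fibrillar collagen, had 1.67. Of these 10, 2 rose, beside 1.09% of all genes tested, Dcn and Col1a2 (1.46, limma adjusted p = 0.0484). The 1 that fell, beside 1.53%, was Hand2, a transcription factor of the stroma, with -0.71 (limma adjusted p = 0.0388), while Vim had -0.66. Dcn, a matrix proteoglycan, was at a log2 fold change of 0.79 (limma adjusted p = 0.0192) and Col3a1 at 0.78 (limma adjusted p = 0.181), or 0.51 without mutant replicate 3. With 1 library left out 0 to 3 stromal markers rose and 0 or 1 fell. Gland markers summed to 150 to 3290 FPKM and 33.9 to 90.4 FPKM, with 1 of 7 above 0 and 6 below. At the adjusted p 1 of 7 fell, beside 1.53% of all genes tested, Spink1 with a log2 fold change of -5.93 (limma adjusted p = 0.0292). Prss29, which shares sequence with Prss28, had -4.18 (limma adjusted p = 0.335), or -2.48 without control replicate 2. The 1 above 0 was Cxcl15 at 1.02, or 0.30 without control replicate 2. Foxa2 and Lif were at -0.02 and -0.06, or -0.25 and -0.88 without control replicate 2. Without that library the control sums of the gland markers were 150 to 609 FPKM, without mutant replicate 4 the mutant sums were 33.9 to 36.3 FPKM, and 0 gland markers passed the adjusted p of limma in 6 of the 8 fits that left out 1 library. Leukocyte markers summed to 133 to 201 FPKM and 132 to 312 FPKM, the latter 203 to 312 FPKM without mutant replicate 3. In limma 0 of 9 passed the adjusted p and 2 had an unadjusted p under 0.05, beside 21.2% of all genes tested. Cd52 and Coro1a had 0.39 and 0.38 (limma adjusted p = 0.517 and 0.36), or 0.12 and 0.20 without mutant replicate 4 and 0.66 and 0.58 without mutant replicate 3. The part of these cell types in the Notch values was not tested.

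Notch4 and Dll4 were also set against the endothelial markers, a ratio chosen after their values were seen and given with no test. Per 1000 FPKM of the 12 markers, Notch4 was at 6.43, 9.39, 6.79 and 7.56 in Nr2f2 f/f and at 10.3, 8.23, 9.83 and 7.91 in Nr2f2 d/d. The genotypes overlapped, and the mean was higher in the mutants, 9.07 ± 1.18 against 7.54 ± 1.32 (SD, n = 4). Dll4 was at 11.2, 28.3, 10.4 and 9.10 in the controls and at 19.95, 17.1, 18.0 and 20.4 in the mutants, which were above every control but replicate 2.

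The genes whose deviations from the genotype mean were most like those of a Notch gene over the 8 libraries are given as a description, the 2 highest of all genes tested for each and so high by choice. For Jag2 these were Dcbld1 (Pearson's r = 0.98) and Phf10 (r = 0.971), for Notch3 Wdr90 (r = 0.993) and Arhgdig (r = 0.984), and for Notch4 Syne3 (r = 0.963) and Mcf2l (r = 0.962). For Hes1 they were Gimap8 and H2-T-ps, for Jag1 Cbarp and Pde4b, for Dll1 Rps19 and Snord23, for Heyl Smg9 and Arl16, with r from 0.955 to 0.997. Notch1 was closest to Slc39a1 and Abcb6, both with r = 0.985, but without Nr2f2 f/f replicate 2 these were 0.83 and 0.768. For Notch2 they were Dpp4 and 5033428I22Rik (r = 0.993 and 0.992, or 0.932 and 0.989 without that library), and for Dll4 Sfxn3 and Pitpnm3 (r = 0.994 and 0.992, or 0.977 and 0.959).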
